A study of Mus musculus with 8 samples.

Results

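A set of 5 long noncoding RNAs known as residents of the nucleus, Malat1, Neat1, Meg3, Rian and Miat, were followed in polysome fractions of the mouse main olfactory epithelium, the tissue of the nose that holds the olfactory sensory neurons. The 5 genes were taken by name from the 21765 gene symbols of the deposited expression table, and all 5 were among the 16097 genes with a mean of at least 1 transcript per 1000000 (TPM) that were tested. They served as a gauge of RNA in the fractions that is not being translated. The study compared 2 genotypes: mice labelled wild type (WT), which carried Mex3a flox/flox or Mex3a flox/+ without Cre, and conditional knockouts (cKO), which carried Mex3a flox/flox with Cre. Mex3a encodes an RNA-binding protein, and by these labels every mouse carried at least 1 floxed Mex3a allele. Tissue of both genotypes was treated with 100 µg/mL cycloheximide, a drug that arrests ribosomes on mRNA, and lysates were spun through sucrose gradients collected in about 42 fractions of 350 µL. A pool of 50 µL each from fractions 27 to 34 is called early polysomes, which are lighter, and a pool of fractions 35 to 42 late polysomes, which are heavier. WT early, WT late, cKO early and cKO late each held 2 libraries, from 4 lysates that each gave an early and a late library. Ages, the sex of the mice and whether a lysate pooled animals are not given in the sources used here, so the p-values measure the spread between these libraries, which may be partly technical.

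One doubt concerns the labels: WT early replicate 2 is titled WT but tagged with the cKO genotype. Mex3a, the targeted gene, had 115.6 TPM in it, beside 93.18 to 97.41 TPM in the other WT libraries and 11.06 to 19.8 TPM in the 4 cKO libraries. It was kept as WT, and the calls of the 5 RNAs that rest on it are given without it too. Libraries held 7776792 to 12771079 reads as inferred from the steps between TPM values, fewest in cKO late replicate 2. The marker of mature olfactory neurons Omp was at 2330 to 5544 scaled TPM (Omp is defining for the labelled tissue). Whole-tissue RNA and the lighter fractions were not analysed here, so the share of each RNA that entered the polysome part of the gradient is not known.

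Long noncoding RNAs are transcripts that carry no long reading frame for a protein, and many of them act without leaving the nucleus. Malat1 gathers in nuclear speckles, bodies that store splicing factors, and Neat1 is the scaffold around which paraspeckles are built. Meg3 and Rian (also called Meg8) are expressed from the maternal chromosome in the imprinted Dlk1-Dio3 region, where Rian hosts a large group of small nucleolar RNAs, and Miat (Gomafu) lies in nuclear foci of its own in neurons and binds splicing factors. A gradient sorts particles by size and density, so that a large RNA-protein particle can enter the polysome fractions without carrying ribosomes.

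By GENCODE M21 annotation of GRCm38, Malat1 and Neat1 are neighbours on the minus strand of chromosome 19, at 5795690 to 5802672 and 5824708 to 5845478, with 22035 nt between them. Meg3 and Rian lie on the plus strand of chromosome 12, at 109541001 to 109571726 and 109603940 to 109661716, with 32213 nt between them. Miat lies on the minus strand of chromosome 5, at 112213228 to 112229395. Malat1, Neat1, Meg3 and Miat are annotated as lincRNA and Rian as a processed transcript. Genes annotated on the opposite strand overlap Malat1 (Gm37376), Meg3 (Gm26906) and Miat (Gm26953). None of these has a row in the table, and whether the authors' counting used strand is not stated, so reads from them cannot be told apart from the 3 named genes.

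The sequence that sets Malat1 and Neat1 apart from messenger RNAs lies at their 3′ ends. Their long transcripts have no poly(A) tail of the usual kind. As background, U-rich motifs pair with an A-rich tract to form a triple helix that protects the end. The stretches are printed 5′ to 3′ as DNA letters from the GENCODE M21 transcripts, with the 3 stretches of at least 11 bases that the last 500 nt of both transcripts share in capitals: first and second a U-rich motif, then the A-rich tract. The Malat1 stretch is chr19:5795982-5796073 on the minus strand, and the Neat1 stretch is chr19:5824708-5824805 on the minus strand, the last bases of the 20771 nt transcript.
Malat1: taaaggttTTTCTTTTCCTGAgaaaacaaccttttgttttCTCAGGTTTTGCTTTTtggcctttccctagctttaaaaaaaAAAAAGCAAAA
Neat1: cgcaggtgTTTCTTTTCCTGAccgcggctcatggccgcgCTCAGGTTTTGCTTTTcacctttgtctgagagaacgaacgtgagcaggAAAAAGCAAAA
The first motif, TTTCTTTTCCTGA, was found on the transcript strand in annotated transcripts of 21 of 55341 genes (0.038%). The second, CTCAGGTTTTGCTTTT, was found in 2, and AAAAAGCAAAA in 376 (0.679%). The motifs were read from Malat1 and Neat1 themselves, and no other gene held all 3 in this order within 150 nt.

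Miat is known for repeats of TACTAAC, the letters of a strong intron branch point, which are bound by the splicing factor SF1. The longest Miat transcript (9163 nt) held 6 copies, in capitals in the stretches below, which are chr5:112217311-112217458 and chr5:112216754-112216810 on the minus strand.
Miat stretch 1: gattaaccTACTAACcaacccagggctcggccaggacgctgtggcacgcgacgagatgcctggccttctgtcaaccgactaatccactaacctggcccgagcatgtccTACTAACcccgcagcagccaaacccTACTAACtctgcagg
Miat stretch 2: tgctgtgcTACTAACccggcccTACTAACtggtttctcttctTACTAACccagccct
On the transcript strand, Neat1 held 1 copy and Malat1, Meg3 and Rian 0. Of all genes, 4.57% had at least 1 copy in the longest transcript, and among the 4189 genes with a longest transcript of at least 5000 nt, 0.0477% had 6 or more.

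Malat1 was by far the most abundant of the 5 RNAs in every library. Levels are given as TPM scaled between libraries by median ratios, a unit that corrects for gene length and so allows genes to be compared. They are relative to the other RNA of the same library, so a late level below the early one is not a measured loss of molecules. Malat1 stood at 2262 and 2147 scaled TPM in the WT early libraries, 2189 and 2443 in cKO early, 1044 and 735.7 in WT late, and 866.4 and 751.8 in cKO late (replicates 1 and 2). All 4 late libraries lay below all 4 early ones, the highest late value being 1044 and the lowest early value 2147. By deposited TPM, Malat1 was the 32nd to 35th most abundant gene of the early libraries and the 72nd to 118th of the late ones, and 14817 to 75528 reads stood behind each value.

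Neat1 was at 17.29 and 20.6 scaled TPM in the WT early libraries, 19.39 and 28.81 in cKO early, 8.188 and 7.207 in WT late, and 9.88 and 8.221 in cKO late. The early and late libraries did not overlap, and cKO early replicate 2 was the highest. The length implied by the steps between TPM values was 20800 nt for Neat1, near the 20771 nt of its long isoform. TPM thus appears to count Neat1 reads against the long transcript. Implied lengths are estimates: of 1460 single-transcript protein-coding genes, 65.07% had an annotated length within 5% of the implied one. Miat was at 14.51 and 9.527 scaled TPM in the WT early libraries, 10.59 and 16.06 in cKO early, 8.806 and 5.245 in WT late, and 5.285 and 6.794 in cKO late. Its groups did not overlap between fractions either, though the highest late value, WT lysate 1, came close to the lowest early value, WT lysate 2.

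Meg3 and Rian, the RNAs of the imprinted region, were rare. Meg3 was at 3.744 and 3.452 scaled TPM in the WT early libraries, 1.296 and 1.964 in cKO early, 1.254 and 0.9323 in WT late, and 1.066 and 0.875 in cKO late. The 2 WT early libraries stood clear of the other 6, and the lowest early value exceeded the highest late value by a margin that the deposited TPM did not keep (1.233 in cKO early replicate 1 against 1.314 in WT late replicate 1). Rian was at 2.863 and 2.212 scaled TPM in the WT early libraries, 2.469 and 2.598 in cKO early, 2.332 and 1.386 in WT late, and 1.967 and 0.4949 in cKO late. Its early and late libraries overlapped. Only 32 to 232 reads per library stood behind Meg3 and 5 to 49 behind Rian, the 5 being in cKO late replicate 2.

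The order of levels was Malat1, Neat1, Miat and then the imprinted pair. In early polysomes every Neat1 value exceeded every Miat value, while in late polysomes the ranges of Neat1 and Miat overlapped. Meg3 exceeded Rian in both WT early libraries and was below it in both cKO early libraries, and their late ranges overlapped. Among the 469 tested genes that GENCODE M21 lists as long noncoding, Malat1 was 2nd by mean level, Neat1 59th, Miat 109th, Rian 348th and Meg3 373rd. Meg3 had more reads than Rian in every library, so the order of this pair rests on the lengths implied by the TPM steps (12974 nt for Meg3, 3584 nt for Rian).

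**Figure D1:**
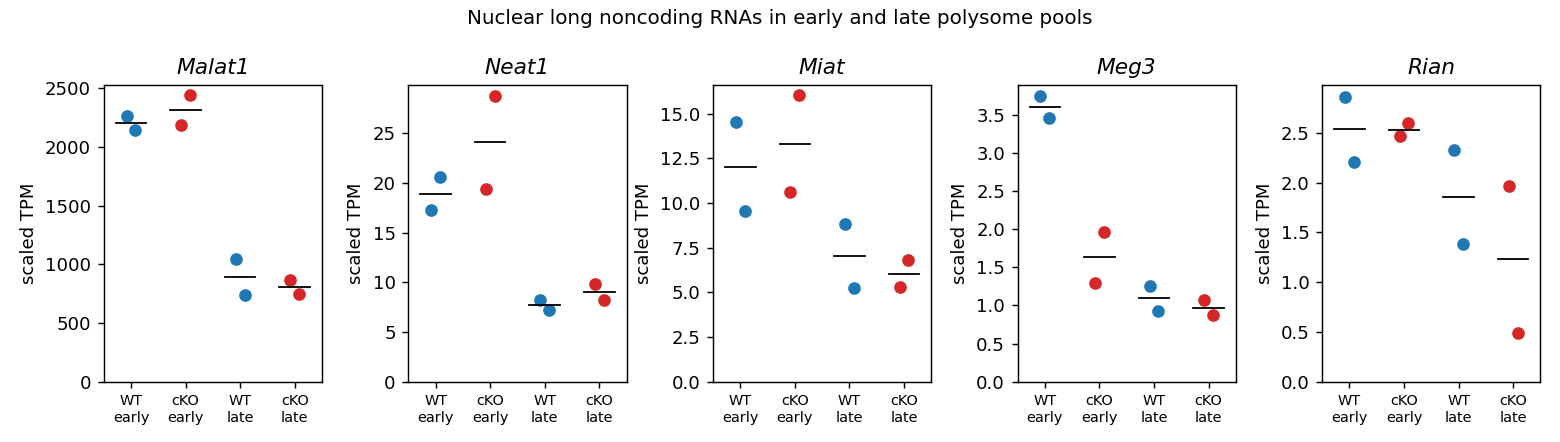
Scaled TPM (vertical axes, each from 0) of each nuclear RNA in the 2 libraries (points) of WT early, cKO early, WT late and cKO late, with the group mean as a line; blue is WT and red is cKO. Late libraries lie below early ones for Malat1, Neat1, Miat and, narrowly, Meg3, and overlap them for Rian.

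As a gauge of the whole fraction, the 5 RNAs together held 0.2115% to 0.2321% of the deposited TPM of early libraries and 0.07973% to 0.1116% of late libraries. Malat1 alone was 97.87% to 98.48% of that sum, so the gauge is in practice a reading of Malat1. Counted as reads, which weight long transcripts more, the 5 RNAs took 0.6211% to 0.7086% of early and 0.1942% to 0.2716% of late libraries. The shares did not overlap between fractions on either scale.

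The first comparison set late against early polysomes, which asks how far each RNA follows the heavier part of the gradient. Malat1 in late polysomes was at 46.15% and 34.27% of its early level in WT lysates 1 and 2, and at 39.58% and 30.77% in cKO lysates 1 and 2 (mean 37.69% ± 6.7, SD, n = 4 lysates). Neat1 was at 47.37%, 34.99%, 50.96% and 28.53% in the same order (mean 40.46% ± 10.49). Miat was at 60.68%, 55.05%, 49.9% and 42.31% (mean 51.98% ± 7.81). These 3 RNAs were lower in the late pool of each of the 4 lysates, and no lysate's late level exceeded 60.68% of its early level.

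Meg3 was at 33.48% and 27.01% of its early level in the WT lysates, and at 82.24% and 44.55% in the cKO lysates (mean 46.82% ± 24.7, SD, n = 4 lysates). Rian was at 81.45%, 62.65%, 79.66% and 19.05% (mean 60.7% ± 29.03), the last value resting on the library with 5 reads. Both were below their early level in each of the 4 lysates, and the lysates differed more for these rarer RNAs than for the other 3.

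**Figure D2:**
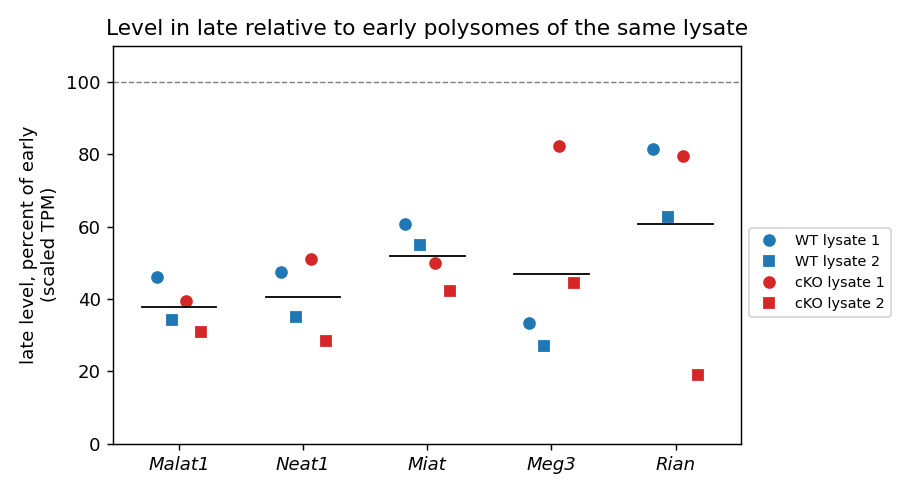
Late level as a percent of the early level of the same lysate (vertical axis, scaled TPM) for each RNA; symbols are lysates (blue WT, red cKO, circles lysate 1, squares lysate 2), black lines the mean of 4, and the dashed line marks equal levels. Every point is below 100, and Rian in cKO lysate 2 (19.05) is the lowest.

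By limma over all 16097 genes, 4 of the 5 RNAs were lower in late polysomes on average over genotypes, beside 34.6% of all tested genes called lower. Malat1 fell by 1.42 on the log2(scaled TPM + 1) scale (SE 0.13, adjusted p = 3.97e-05), and Neat1 by 1.25 (SE 0.14, adjusted p = 9.25e-05). Miat fell by 0.86 (SE 0.21, adjusted p = 0.00564) and Meg3 by 0.77 (SE 0.18, adjusted p = 0.00421). Rian changed by -0.53 and missed the threshold of 0.05 (SE 0.25, 95% interval -1.10 to 0.03, adjusted p = 0.0838). The median change of all tested genes was -0.01, and the median of the 5 RNAs was -0.86. Of all tested genes, 2.5% had a lower change than Malat1, 4.7% than Neat1, 13.5% than Miat, 16.5% than Meg3 and 26.2% than Rian. Libraries did not overlap for 4 of the 5, beside 30.9% of all tested genes whose 4 late libraries lay below all 4 early ones.

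The scale understates the change of rare RNAs. With voom on the inferred whole reads, Malat1 and Neat1 changed by -1.43 and -1.34, Meg3 by -1.21, Miat by -0.97 and Rian by -0.85. All 5 passed there, Rian with an adjusted p of 0.032. Over its 16 alternatives Rian passed in 2, the other being without cKO late replicate 1 (-0.78, adjusted p = 0.0105). Without cKO late replicate 2, the library with 5 Rian reads, its change was -0.28 (adjusted p = 0.23). Without the WT early library of replicate 2, whose tag and title disagree, the same 4 RNAs passed and Rian did not (-0.60, adjusted p = 0.108).

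Within WT, 3 of the 5 RNAs were lower in late polysomes, beside 27.7% of all tested genes: Malat1 (-1.33, adjusted p = 0.000812), Neat1 (-1.19, adjusted p = 0.00155) and Meg3 (-1.14, adjusted p = 0.00529). Miat changed by -0.71 with an adjusted p of 0.0693. It passed in the fit with the lysate as a replicate block (adjusted p = 0.00946), with voom (-0.80, adjusted p = 0.0172) and without WT late replicate 1 (-1.03, adjusted p = 0.0368), and in none of its other 15 alternatives. The Miat value moved to -0.43 (adjusted p = 0.331) without WT early replicate 1 and to -0.38 (adjusted p = 0.371) without WT late replicate 2. Rian changed by -0.32 (adjusted p = 0.462). Without WT early replicate 2 the 3 calls held, with adjusted p-values of 0.00851, 0.0167 and 0.0291.

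Within cKO, 3 of the 5 were lower, beside 29.2% of all tested genes: Malat1 (-1.52, adjusted p = 0.000364), Neat1 (-1.30, adjusted p = 0.000847) and Miat (-1.01, adjusted p = 0.0172). The Miat call was lost without cKO late replicate 1 (-0.85, adjusted p = 0.0893) and without cKO early replicate 2 (-0.73, adjusted p = 0.123). Meg3 changed by -0.41 (adjusted p = 0.19) and Rian by -0.75 (adjusted p = 0.0975), which became -1.24 (adjusted p = 0.0132) without cKO late replicate 1 and -0.25 (adjusted p = 0.515) without cKO late replicate 2. Malat1 and Neat1 were thus called in both genotypes, Meg3 in WT and Miat in cKO, and the test of the difference between genotypes, given further on, called none of the 5.

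The 5 RNAs were set beside other RNA groups. Of 16 other nuclear long noncoding RNAs, 10 were tested and 8 were lower in late polysomes, 0 higher, with a median change of -0.72. Over all tested genes, 34.6% were called lower and 34.3% higher. The largest were Airn (-1.12, adjusted p = 0.000241), the antisense RNA of the imprinted Igf2r locus, and Jpx (-1.12, adjusted p = 0.000257), an activator of Xist. Kcnq1ot1 (-0.22, adjusted p = 0.304) and Sox2ot (-0.56, adjusted p = 0.058) did not pass. Without WT early replicate 2, 7 of the 10 were lower.

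Cytoplasmic or exported long noncoding RNAs moved the same way, again beside 34.6% of all tested genes called lower. Of 13 listed, 9 were tested and all 9 were lower, with a median of -0.92, from Snhg3 (-2.0, adjusted p = 0.000174) and Snhg6 (-1.54, adjusted p = 0.00991), spliced hosts of small nucleolar RNAs, to Snhg12 (-0.70, adjusted p = 0.00205) and 2900097C17Rik (-0.26, adjusted p = 0.0312), the mouse Norad gene. Without WT early replicate 2, 8 of the 9 were lower. Among 5 tested small noncoding RNA genes of RNP particles, Rnu11, a snRNA of the minor spliceosome, was lower (-1.0, adjusted p = 0.0292). Rpph1, the RNA of RNase P, changed by -0.84 (adjusted p = 0.082), Rmrp by 0.18 (adjusted p = 0.551) and the telomerase RNA Terc by 0.47 (adjusted p = 0.103).

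Over all genes by GENCODE class, 332 of the 469 long noncoding genes (70.79%) were lower in late polysomes and 8 higher, with a median of -0.74. Of 14666 protein-coding genes, 4912 (33.49%) were lower and 5348 higher, with a median of 0.04. Malat1 and Neat1 lay at the far end of the long noncoding genes, 2.8% and 7.7% of which had a lower change. Miat and Meg3 lay among the bulk (36.2% and 46.5%), and 72.9% had a lower change than Rian. These positions are on the log2(scaled TPM + 1) scale, which understates the change of rare RNAs. With voom, Meg3 fell more than Miat (-1.21 and -0.97). Without WT early replicate 2, 285 long noncoding and 4459 protein-coding genes were lower.

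The mRNAs listed for paraspeckle and nuclear speckle proteins mostly moved the opposite way. The list also held Qk, Celf3 and Sf1, RNA-binding proteins whose place in the bodies of Malat1 or Neat1 was not checked. Of the 18 tested mRNAs of this list, 13 were higher in late polysomes and 3 lower, with a median of 0.82. Over all tested genes, 34.3% were called higher and 34.6% lower. With WT early replicate 2 left out, 12 were higher. The largest rise was that of Hnrnpm (1.11, adjusted p = 3.49e-05), an RNA-binding protein. Nudt21, a subunit of the cleavage factor that sets poly(A) sites, fell by 0.76 (adjusted p = 8.09e-05), and Qk, an RNA-binding splicing regulator, fell by 0.58 (adjusted p = 0.000174). Of 10 abundant reference mRNAs, 6 were higher and 2 lower, beside 34.3% and 34.6% of all tested genes. Pkm (1.24, adjusted p = 3.56e-05) and Actb (1.16, adjusted p = 0.000179) rose most, while Tpt1 (-1.14, adjusted p = 0.000477) and Ppia (-0.87, adjusted p = 0.000219), 2 short mRNAs, fell.

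**Figure D3:**
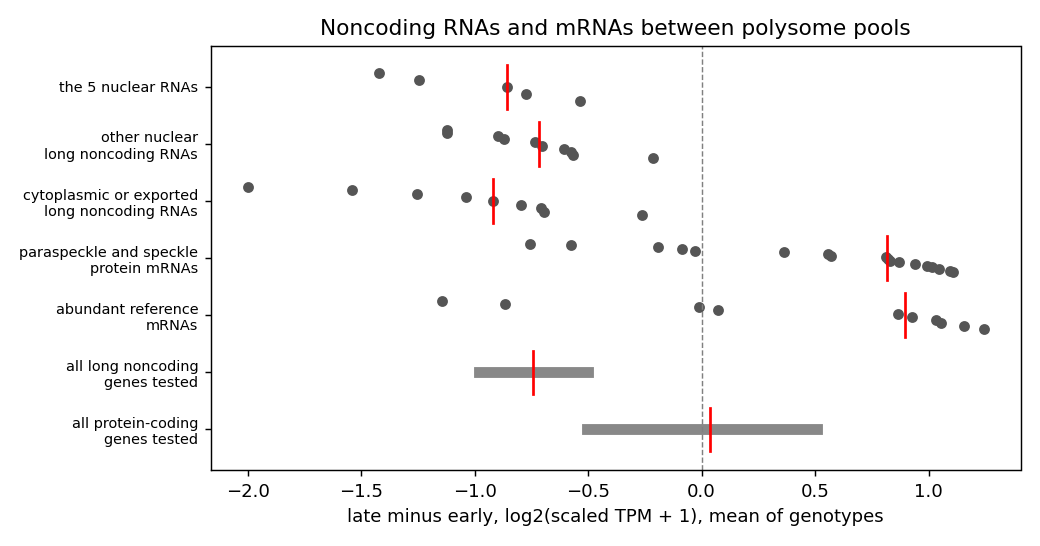
Late minus early change, log2(scaled TPM + 1), averaged over genotypes (horizontal axis), of each tested gene (grey points) in 5 groups; red lines are medians, and grey bars span the quartiles of all tested long noncoding and protein-coding genes. The 5 nuclear RNAs (median -0.86) lie left of 0 with the other long noncoding RNAs. The mRNAs listed for paraspeckle and speckle proteins lie mostly right of it (median 0.82).

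Among mRNAs, the change between pools was higher in each bin of longer coding sequences. In the tenth of protein-coding genes with the shortest coding sequence (median 417 nt) the median change was -1.12, and in the tenth with the longest (median 4560 nt) it was 0.50. The longest open reading frame in the longest transcript, whether or not it is used, was 195 nt in Malat1, 381 nt in Neat1, 561 nt in Meg3, 231 nt in Rian and 297 nt in Miat. These are 1.83% to 3.86% of transcripts of 6983 to 20771 nt. For Rian that transcript (8089 nt) is longer than the length implied by its TPM steps (3584 nt).

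On the log2(scaled TPM + 1) scale, protein-coding genes whose coding sequence was within 20% of that length had changes close to those of Malat1, Neat1 and Meg3. Their medians were -1.37 (91 genes) for Malat1 at -1.42, -1.20 (680 genes) for Neat1 at -1.25, and -0.80 (1354 genes) for Meg3 at -0.77. Miat at -0.86 and Rian at -0.53 were above the upper quartiles of the coding genes of like length, which were -1.06 (339 genes) and -1.09 (170 genes). For Meg3, which is rare, the closeness depended on the scale. With voom on the inferred reads Meg3 changed by -1.21. The lower quartile of its coding genes of like length was -1.05 on the log2(scaled TPM + 1) scale. Values of those coding genes with voom are not given here. Whether any of these reading frames carries ribosomes was not tested.

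**Figure D4:**
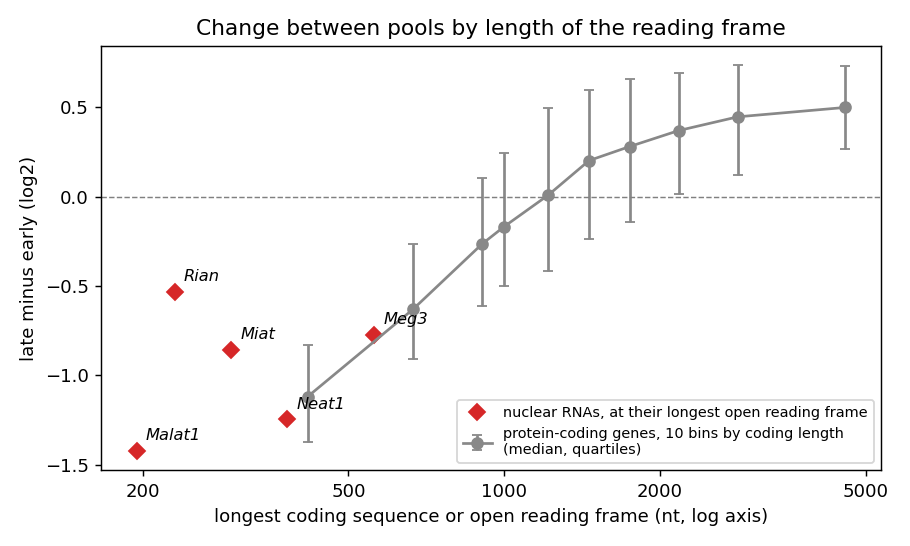
Late minus early change (log2, vertical axis) against the length of the reading frame (nt, log axis): grey points are medians of protein-coding genes in 10 bins by coding length with quartile bars, and red diamonds are the nuclear RNAs at their longest open reading frame. Malat1, Neat1 and Meg3 lie near the level of short mRNAs, and Miat and Rian lie higher.

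The second comparison set cKO against WT, which asks whether the relative level of these RNAs in polysome fractions differed with loss of Mex3a. By limma, 0 of the 5 passed in early polysomes, where 0.0435% of all tested genes were called, and 0 of the 5 in late polysomes, where 0.0124% were. At an unadjusted p under 0.05, 1 of the 5 passed in early (Meg3; 6.64% of all tested genes) and 0 in late (9.36% of all tested genes), and voom called 0 in either. Fewer cells of a type and less RNA per cell cannot be told apart in these bulk libraries.

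In early polysomes Malat1 had 2204 ± 81.5 scaled TPM in WT and 2316 ± 180.0 in cKO (SD, 2 libraries each), a difference of 0.07 (log2, 95% interval -0.36 to 0.50). In late polysomes it had 889.8 ± 218 in WT and 809.1 ± 81.0 in cKO, a difference of -0.12 (interval -0.55 to 0.31). Neat1 differed by 0.31 in early (18.9 ± 2.34 in WT, 24.1 ± 6.67 in cKO, interval -0.14 to 0.77) and by 0.21 in late (7.70 ± 0.694 and 9.05 ± 1.17, interval -0.25 to 0.66). Miat differed by 0.14 in early (12.0 ± 3.53 and 13.3 ± 3.87, interval -0.53 to 0.81) and by -0.16 in late (7.03 ± 2.52 and 6.04 ± 1.07, interval -0.83 to 0.51). Rian differed by 0.00 in early (2.54 ± 0.46 and 2.53 ± 0.0912, interval -0.80 to 0.80) and by -0.42 in late (1.86 ± 0.669 and 1.23 ± 1.04, interval -1.22 to 0.38). These intervals leave room for differences in either direction. Leaving out WT early replicate 2, the early difference of Miat turned to -0.14 and that of Rian to -0.13, while Malat1 (0.03) and Neat1 (0.43) kept their direction.

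Meg3 had 3.60 ± 0.207 scaled TPM in WT and 1.63 ± 0.473 in cKO libraries of the early pool. Both cKO libraries lay below both WT libraries, as they did for 17.6% of all tested genes. The difference was -0.82 (SE 0.25, interval -1.39 to -0.25), with an adjusted p of 0.672, and 0.8% of tested genes had a lower difference. Over the alternatives it ranged from -1.18 to -0.64, with adjusted p-values from 0.0512 (voom) to 1.0. Without WT early replicate 2 it was -0.87 (adjusted p = 0.757). In late polysomes Meg3 had 1.09 ± 0.227 in WT and 0.970 ± 0.135 in cKO (difference -0.08, interval -0.65 to 0.48).

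Meg3 is strongly expressed in brain neurons, so markers of olfactory bulb neurons were read beside it. The 8 markers were all in the table, none at 0 in every library, and summed, in scaled TPM, to 45.72 and 32.28 (WT) and 33.78 and 27.22 (cKO) in the early libraries, and to 57.81, 33.95, 36.22 and 30.02 in the late libraries (WT 1 and 2, cKO 1 and 2). The sum was highest in WT lysate 1 in both fractions, and the early ranges of the genotypes overlapped. Of the 7 markers tested, 6 had a lower early level in cKO than in WT, as Meg3 did, with a median difference of -0.51 and 0 called. Over all tested genes the median early difference was 0.005. Among the 6, Eomes was lower in both cKO early libraries (4.519 and 3.688 scaled TPM) than in both WT ones (5.685 and 5.703). Gad2 went the other way, with higher values in both cKO early libraries (9.111 and 8.047) than in both WT ones (6.468 and 6.772). Slc17a7 (10.1, then 3.494) and Gad1 (4.142, then 1.656) differed more between WT early replicates 1 and 2 than Meg3 did (3.744, then 3.452). Another nuclear RNA, Xist, the RNA of the inactive X chromosome, was also lower in both cKO early libraries, as Meg3 was. Xist was picked after its values were seen, from the 10 tested other nuclear long noncoding RNAs. By limma, 0 of these 10 were called between genotypes in early polysomes. At an unadjusted p under 0.05, 1 of the 10 passed (6.64% of all tested genes). Xist had 3.419 and 2.831 in WT early and 1.134 and 1.884 in cKO early (difference -0.73, adjusted p = 0.71). In late polysomes Xist was again lower in cKO (1.725 and 1.673 in WT, 0.695 and 0.5734 in cKO), whereas Meg3 differed by -0.08. The part of cell composition or of the sex of the mice in the Meg3 values was not tested. Rian, from the same imprinted region, overlapped between the genotypes in early polysomes. The other tested genes of that region, Dlk1 and Dio3, were not called in any of the 7 comparisons.

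On the means of early and late values of each lysate, 0 of the 5 RNAs were called, with 0.00621% of all tested genes called. At an unadjusted p under 0.05, 1 of the 5 passed (Neat1; 11.3% of all tested genes). Meg3 differed by -0.45 (interval -0.91 to 0.01, adjusted p = 0.447) with limma and by -0.84 (interval -1.22 to -0.46, adjusted p = 0.0942) with voom, which called 0 of the 5. With limma Neat1 differed by 0.26 (interval 0.01 to 0.51, adjusted p = 0.434). The interaction of genotype and fraction, which tests whether the late minus early change differs between genotypes, called 0 of the 5 and 0.00621% of all tested genes, and 0 of the 5 had an unadjusted p under 0.05 (2.85% of all tested genes). The limma estimate was 0.73 for Meg3 (interval -0.07 to 1.54), -0.43 for Rian (interval -1.56 to 0.71), -0.30 for Miat (interval -1.24 to 0.65), -0.19 for Malat1 (interval -0.79 to 0.42) and -0.11 for Neat1 (interval -0.75 to 0.54), with an adjusted p of 1.0 for each. Voom called 0 of the 5 as well, with an estimate for Meg3 of 1.04 (interval 0.25 to 1.84, adjusted p = 1.0) that excluded 0 before adjustment.

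**Figure D5:**
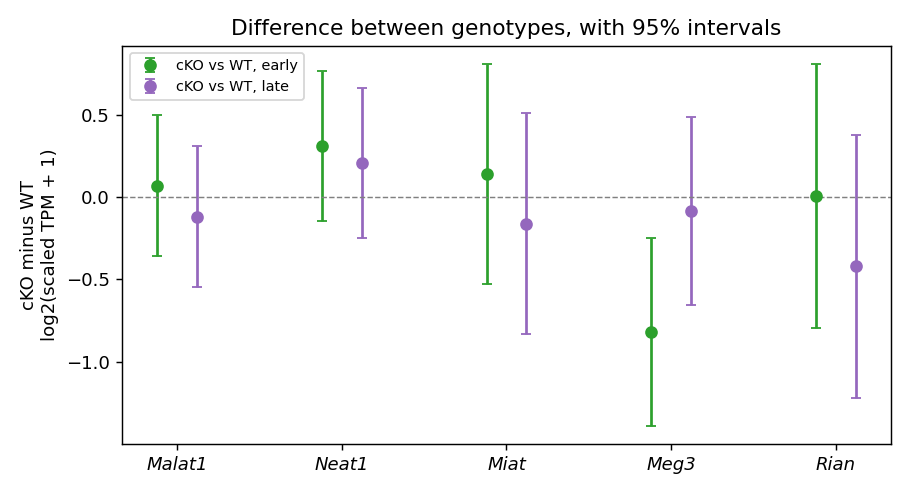
Difference of cKO minus WT, log2(scaled TPM + 1), with 95% intervals (vertical axis) for each RNA in early (green) and late (purple) polysomes, from 2 libraries per group. Meg3 in early polysomes (-0.82) has an interval below 0 before adjustment over all genes, and the other 9 intervals include 0.

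Rian hosts small nucleolar RNAs and microRNAs in its introns, and 6 of these have rows in the table. AF357425 reached 15.08 deposited TPM in WT early replicate 2, which is 5 reads, and Mir1188 reached 3.09 deposited TPM, which is 1 read. DQ267102 was above 0 in WT early replicate 1 alone, and DQ267100, Mir341 and Mir370 were listed at 0 in all 8 libraries. The host transcript and its processed products could not be compared at this depth.

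The genes whose levels were most like each RNA over the 8 libraries were found by Pearson's r of log2(scaled TPM + 1), among 12130 genes. Since 11094 of the 16097 tested genes were called between the fractions, which all 8 libraries share, r is high for many genes, and it is given as a description. For Malat1 they were Ppp1r16b (r = 0.998), a regulatory subunit of protein phosphatase, Manf (r = 0.998), a secreted factor of the endoplasmic reticulum stress response, and Dleu2 (r = 0.997), itself a long noncoding RNA. For Neat1 they were Ctdspl (r = 0.997), Slc35a4 (r = 0.997) and the small GTPase Arf6 (r = 0.996). For Miat they were Wbscr27 (r = 0.978), the DNA repair gene Ercc8 (r = 0.972) and Ccdc166 (r = 0.958). For Meg3 they were Agps (r = 0.978), an enzyme of ether lipid synthesis, Syngr3 (r = 0.965), a synaptic vesicle protein, and Vdac2 (r = 0.957), a channel of the mitochondrial outer membrane. For Rian they were Pdcl3 (r = 0.980), the serine synthesis enzyme Psph (r = 0.975) and Cadps2 (r = 0.968).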

How the data were processed

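The authors deposited 1 table of TPM for 21765 gene symbols and 8 libraries, each column summing to 1000000. The labels' protocols name a stranded total RNA kit, and the submitters' processing notes list FastQC, cutadapt, STAR, DESeq2 and mm10. The counter, annotation and versions are not given in the sources used here, and the Cre line is not reported here. The series' design text describes sorted HyperTRIBE cells, which these samples' labels do not.

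Groups came from sample titles. Libraries were brought to a common scale by median ratios (factors 0.9313 to 1.062). Then log2(scaled TPM + 1) of the 16097 genes with a mean TPM of at least 1 was fitted with limma 3.58.1 (R 4.3.3) over all 4 groups, with a mean-variance trend. Tests were two-sided, with Benjamini-Hochberg adjustment over all tested genes and a threshold of 0.05. Genotype was also tested on lysate means. Whole reads were inferred from TPM steps for 19783 genes (100% within 0.001) and tested with voom. Simulated libraries gave exact reads for 99.62% of 19544 genes. On simulated data in which 198 of 16057 genes changed 3-fold between fractions, limma recovered 189 on average over genotypes with 11 false calls. With no gene changed between genotypes it made 5 false calls in early and 6 in late polysomes. The simulation held far fewer changed genes than the 11094 of 16097 called here, the same extra spread for every gene and no lysate effect. It therefore does not show how often false calls arise in data like these.

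Early and late libraries of a lysate share a lysate name. Their deviations from group means correlated across genes at 0.0862 (WT) and 0.0502 (cKO). Gene classes, reading frames and sequences came from GENCODE M21 on GRCm38, which matched 96.05% of symbols and may not be the authors' annotation. A reading frame ran from ATG to a stop codon. Named genes were the 5 RNAs, Mex3a, the 3 genes most like each RNA with a mean scaled TPM of at least 5, and the 2 largest and 2 smallest changes of each list, of which 1 is not reported here; Xist, Omp and the RNAs hosted by Rian were named after their values were seen. The 5 RNAs and the lists were chosen with earlier results of these data known. Figures were drawn with matplotlib 3.10.9.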

Additional observations from a re-analysis of the deposited data

How the results depend on the processing

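Of 601 values of the 5 RNAs under alternatives (pseudocounts of 0.1 and 0.5, other filters, TPM as deposited, quantile normalization, no trend, only the libraries compared, replicate block, voom, and each library left out), 565 kept their direction and side of the threshold, 6 passed newly, 2 no longer passed and 28 turned direction. All 28 were genotype differences or interactions that passed in no setting, and the cause was not tested. No late against early value turned direction. The number of RNAs called over the libraries left out was 4 to 5 on average over genotypes, 3 to 4 in WT, 2 to 3 in cKO and 0 in the other comparisons. With a mean TPM of at least 5, Meg3 and Rian were not tested.

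With quantile normalization, the early genotype difference was -0.051 for Malat1 and -0.0085 for Rian, and with TPM as deposited it was -0.037 for Rian. On lysate means, the genotype difference with voom was 0.091 for Malat1 and 0.080 for Miat. Over the libraries left out, the early difference ranged from -0.0051 to 0.146 for Malat1, -0.13 to 0.14 for Rian and -0.14 to 0.42 for Miat. The late difference ranged from -0.37 to 0.13 for Malat1, -0.19 to 0.027 for Meg3, -0.92 to 0.073 for Rian and -0.48 to 0.16 for Miat. On lysate means the ranges were -0.17 to 0.12 for Malat1, -0.44 to 0.027 for Rian and -0.31 to 0.29 for Miat. The interaction ranged from -0.44 to 0.066 for Malat1, -0.38 to 0.17 for Neat1, -0.92 to 0.069 for Rian and -0.62 to 0.028 for Miat.

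With the lysate as a replicate block, Miat in WT was -0.71 (adjusted p = 0.00946), and the block changed no other call of the 5 RNAs. On lysate means, 1 of all genes was called between genotypes, beside 82 with a replicate block by number, 58 with voom, 10 without cKO early replicate 1 and 6 without cKO late replicate 1. Same-numbered WT and cKO libraries had deviations correlated at 0.331 in early and 0.142 in late, though no label says that a number marks a shared batch. Counts for whole classes were tried under the same settings after seeing the data: with a mean TPM of at least 5, 162 of 184 long noncoding genes and 3 of 3 other nuclear ones were lower, as fewer genes were tested. Depth limits Rian most, with 5 to 49 reads per library.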
